A study of Mus musculus with 8 samples.

Results

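The collagens and matrix proteoglycans were examined in bulk RNA-sequencing of mouse prostate tissue. Members were chosen by name: every gene symbol of the count table made of Col, a number, the letter a and a number, plus *Dcn*, *Lum*, *Bgn*, *Fmod*, *Ogn*, *Postn*, *Sparc* and *Vcan*. This gave 51 of 27036 genes, of which 43 were collagens and 8 were proteoglycans or matricellular proteins. The collagens were taken as 11 fibrillar, 8 basement membrane and 24 other genes.

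Tissue came from 3 groups of mice, and the sources used here do not give the number of animals behind the libraries. The WT group held 3 normal prostates from R26mTmG/+:Osr1Cre/+ mice, which the study describes as matched for sex and age. The PIN group held 3 prostatic intraepithelial neoplasia tissues and the PCa group 2 prostate adenocarcinomas, all from R26mTmG/hAR:Osr1Cre/+ mice. All mice were on a mixed C57BL/6 and 129S1/SvImJ background. In both genotypes Osr1-Cre recombines the mTmG reporter, which switches cells from membrane tomato to membrane GFP, and mice of the second genotype also express a human androgen receptor (hAR) transgene from the Rosa26 locus in cells of the Osr1 lineage. In the study's single-cell data and staining, the transgene and membrane GFP were found in luminal and basal epithelial cells, and GFP was not seen in cells stained for vimentin or smooth muscle actin. The bulk samples' ages are not given in the sources used here. The study saw PIN lesions from a younger age than PCa lesions, so PCa and PIN may also differ in age. Age was not tested. PIN and PCa tissues were judged under the microscope to be mostly atypical or tumor cells, and WT tissue was normal prostate.

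Collagens are trimers whose chains wind into a triple helix. Fibrillar collagens, type I and type III above all, form the fibers of the stroma, and type IV collagen forms the sheet-like network of basement membranes under epithelia and around smooth muscle and vessels. Type VI collagen forms beaded filaments close to cells, and the fibril-associated collagens bind to the surface of fibers. Small leucine-rich proteoglycans such as decorin and lumican coat collagen fibrils and set their diameter, while matricellular proteins such as periostin and SPARC bind collagen and influence cells without building the scaffold themselves. In the prostate, glands rest on a basement membrane and are wrapped in fibroblasts and smooth muscle, the main sources of stromal collagen.

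The 6 type IV collagen genes lie in the genome as 3 head-to-head pairs, which read away from each other on opposite strands. The sequences between or before the starts are shown here because the pairs behaved differently in the tumors, as described further on. *Col4a1* and *Col4a2* lie on chromosome 8 of mm9, and their annotated starts overlap by 22 bases. *Col4a4* and *Col4a3* lie on chromosome 1 and are 71 bases apart. *Col4a6* and *Col4a5* lie on chromosome X and are 1308 bases apart. The whole *Col4a4* to *Col4a3* interval, at chr1:82583425-82583495 and read on the strand of *Col4a3*, is followed by the 250 bases before *Col4a5* (chrX:137909678-137909927, plus strand), *Col4a6* (chrX:137908620-137908869, minus strand) and *Postn* (chr3:54164781-54165030, plus strand), since *Col4a6* and *Postn* are the genes with a significant change. Capitals mark matches to the motifs named in the next paragraph.
Col4a4-Col4a3: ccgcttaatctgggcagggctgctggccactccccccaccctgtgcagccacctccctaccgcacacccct
Col4a5: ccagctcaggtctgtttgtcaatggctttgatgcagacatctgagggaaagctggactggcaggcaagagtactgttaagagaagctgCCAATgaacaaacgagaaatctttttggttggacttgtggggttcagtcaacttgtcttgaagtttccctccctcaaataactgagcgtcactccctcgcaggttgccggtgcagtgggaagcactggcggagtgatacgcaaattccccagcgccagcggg
Col4a6: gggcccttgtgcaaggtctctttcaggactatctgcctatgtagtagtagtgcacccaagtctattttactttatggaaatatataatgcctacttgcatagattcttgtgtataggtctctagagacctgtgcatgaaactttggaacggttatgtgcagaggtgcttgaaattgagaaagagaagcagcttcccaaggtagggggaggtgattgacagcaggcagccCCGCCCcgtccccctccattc
Postn: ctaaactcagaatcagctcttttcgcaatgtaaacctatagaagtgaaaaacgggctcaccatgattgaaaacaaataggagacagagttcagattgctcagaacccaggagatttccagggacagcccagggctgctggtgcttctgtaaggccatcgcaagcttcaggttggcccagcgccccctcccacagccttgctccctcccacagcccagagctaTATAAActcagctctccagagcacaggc

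Motifs were searched on both strands of such 250-base windows. They were the TATA box (TATAAA), the CCAAT box (the letters of its name), the GC box (GGGCGG), one arm of the androgen response element (AGAACA) and the CArG box of smooth muscle genes. No match of one of them overlapped another in the windows shown. The *Postn* window held TATAAA, with its first base 28 bases before the start. The *Col4a5* window held CCAAT beginning 162 bases before the start, and the *Col4a6* window held GGGCGG on the other strand, 21 bases before the start. TATAAA occurred in 6 of the 51 members' windows (11.8%) and in 12.3% of 26707 windows of all genes. For CCAAT the shares were 35.3% and 34.5%, for AGAACA 13.7% and 14.9%, and for the CArG box 1.96% and 1.3%. GGGCGG occurred in 25 members' windows (49%) against 36.5% of all. A match describes letters in the window and is not evidence that a protein binds there, and counts per gene do not tell alternative starts apart.

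Total counts ranged from 21751803 to 29730420 per library. Levels are given as CPM (counts relative to the library size after scaling by edgeR's TMM factors). WT 2 stood apart from the other WT libraries, with summed epithelial marker CPM of 5330 against 1762 and 1776 and the lowest scaling factor of the 8 libraries. The 2 tumors differed from each other, with a rank correlation of 0.839 across genes against 0.94 to 0.978 for the other libraries with their own group. Numbers in the library names put WT in other series than PIN and PCa, so this numbering and the genotype cannot be told apart in comparisons with WT, whereas PCa and PIN share a series. Luminal prostate markers (6 genes) summed to 45990 to 85300 CPM in WT and PIN but to 321.5 and 1145 in PCa, and seminal vesicle markers (5 genes) to 15620 in WT 1, 2868 in PCa 1 and 692.1 in PCa 2 against 0.634 to 84.38 in the other libraries. Smooth muscle markers were low in both tumors, where their summed CPM (8 genes, none at 0) was 60.05 and 38.78, against 2076 to 6003 in WT and PIN. In bulk tissue fewer cells of a type and less RNA per cell cannot be told apart.

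Of the 51 members, 41 passed the filter of over 1 CPM in at least 2 libraries. The remaining 10 were *Col2a1*, *Col11a1*, *Col24a1*, *Col9a1*, *Col9a2*, *Col9a3*, *Col19a1*, *Col22a1*, *Col10a1* and *Col25a1*, several of them known from cartilage. Among these 10 no library exceeded 1 CPM except PCa 1 for *Col9a3*, at 2 CPM (62 counts). *Col10a1* had 0 counts in 7 libraries and 14 in PCa 2.

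*Dcn*, which encodes decorin, was by far the most abundant member per base of transcript, with a mean of 618 TPM (a level corrected for exon length and library size) over the 8 libraries. *Sparc* followed at 152 TPM, *Col4a6* at 116 and *Bgn* at 105. Among fibrillar collagens *Col3a1* led with 52.3 TPM, ahead of *Col1a1* with 36.3 and *Col1a2* with 28.5. In WT alone *Col4a6* had 145 TPM, above *Sparc* at 129.7 and *Col4a1* at 40.8. Its PCa mean was 1.48 TPM.

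**Figure D1:**
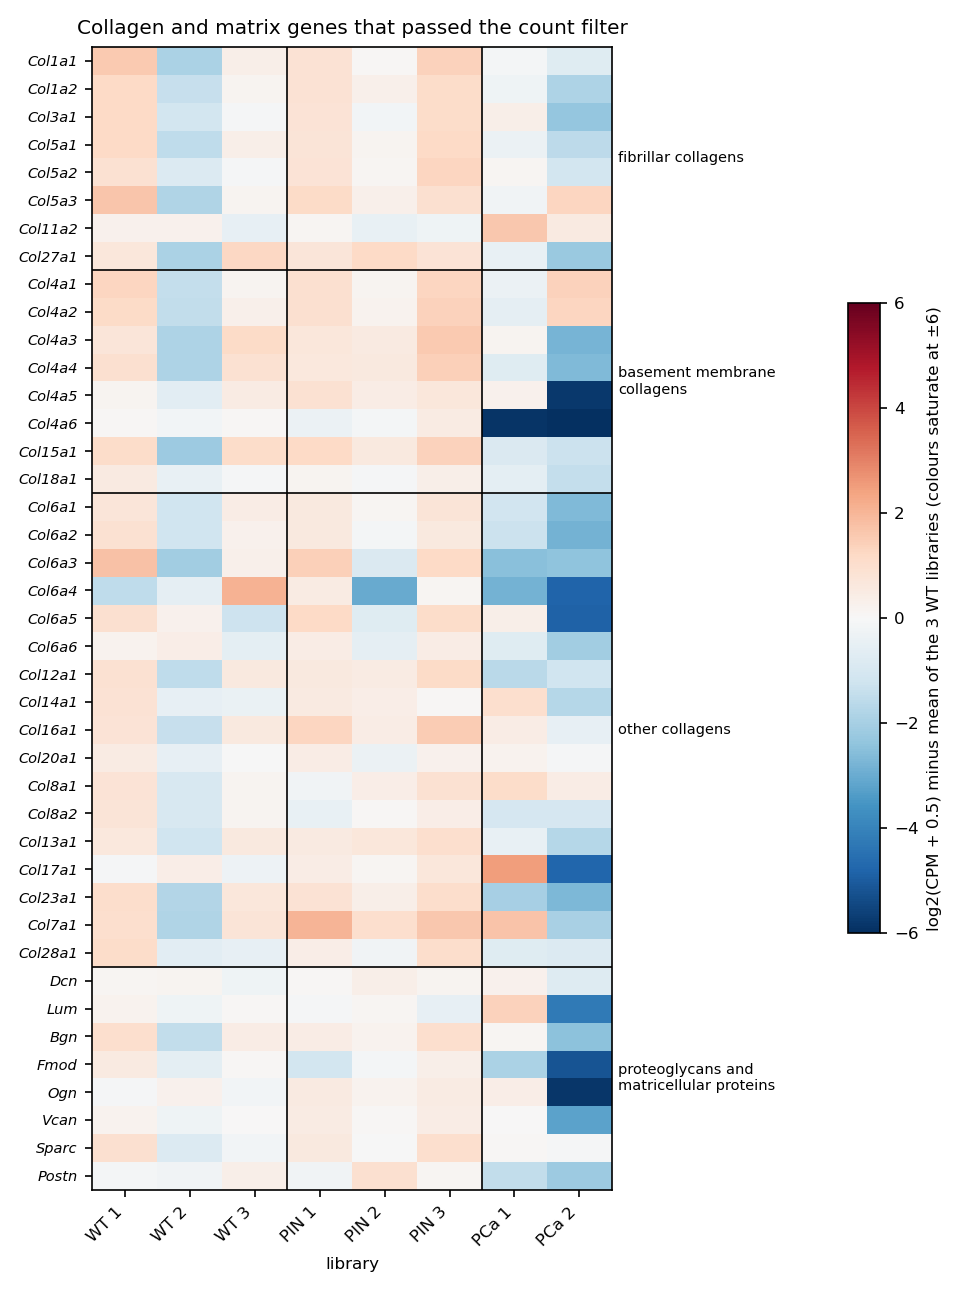
Each cell is the difference of log2(CPM + 0.5) from the mean of the 3 WT libraries, for the 41 genes that passed the filter (vertical axis, by class) in the 8 libraries (horizontal axis). Blue is lower and red is higher; *Col4a6* is deep blue in both tumors, PCa 2 is blue across most genes, and WT 2 is bluer than the other normal tissues.

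Only 2 of the 41 members passed the test in PCa against WT, *Col4a6* and *Postn*, both lower (edgeR's quasi-likelihood test, Benjamini-Hochberg adjusted p under 0.05 and absolute log2 fold change over 1). This is 4.88% of the members, where 8.54% of the 14034 genes tested were called, 4.18% as lower and 4.35% as higher. The same 2 genes were the members called in PCa against PIN, where 5.72% of all genes were called, 3.17% as lower and 2.55% as higher. These comparisons share the PCa libraries. In PIN against WT 0 members passed, as did 0 of all genes (0%). At an unadjusted p under 0.05 that comparison held 492 genes and 0 members, and DESeq2 called 39 genes and 0 members. The study itself reported changed genes in PIN against WT, and in each comparison more genes than edgeR called here. Why the numbers differ was not tested.

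The sign of the differences leaned one way although few passed. In PCa against WT 31 of 41 members had a negative log2 fold change, as did 6927 of the 14034 genes tested. The members' median was -0.99 against 0.01 for all genes. Against PIN 37 of 41 members were negative, as were 6419 of all genes, with a median of -1.28 against 0.07. Single libraries moved both medians, to -2.54 against WT and -3.03 against PIN without PCa 1, and to -0.59 against WT without WT 1. In PIN against WT 36 of 41 members were positive, as were 6736 of all genes, with a median of 0.38 against -0.02. Without WT 2, however, the members' median was -0.01. All members were measured in the same few libraries, so these counts are not separate pieces of evidence. Both tumors lay below every WT library for 11 members (26.8%, against 19.6% of all genes) and below every PIN library for 25 (61%, against 23.2%).

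**Figure D2:**
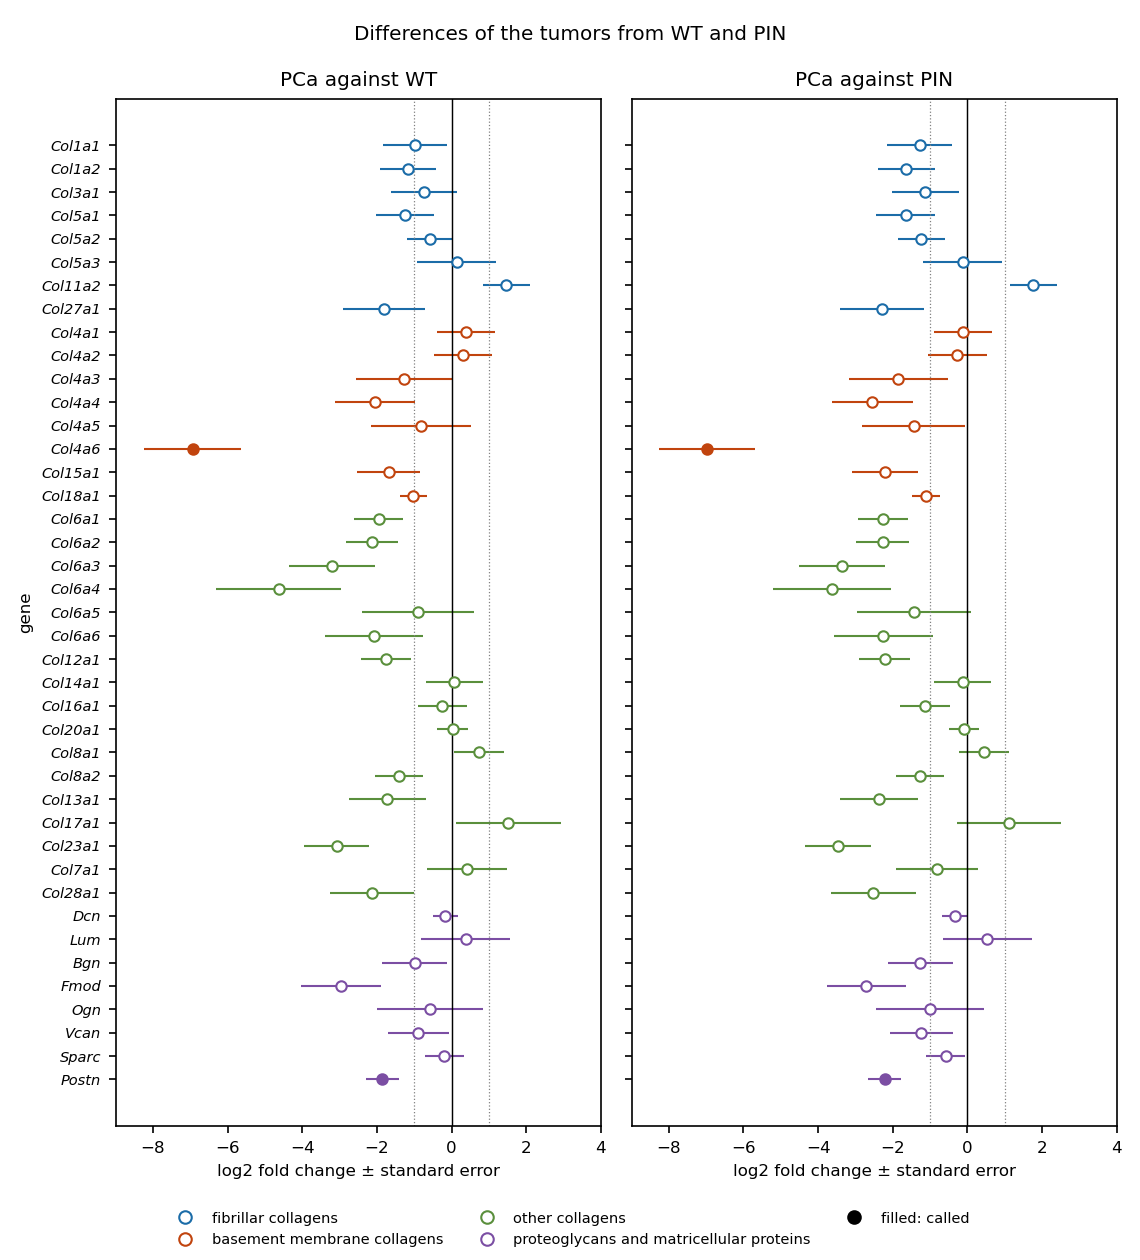
Log2 fold change with its standard error for each of the 41 genes (vertical axis), in PCa (n = 2) against WT (n = 3) on the left and against PIN (n = 3) on the right. Filled points passed the test and dotted lines mark a log2 fold change of 1 in either direction; *Col4a6* and *Postn* are filled in both panels, and most open points lie left of 0.

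Among the fibrillar collagens, 0 of the 8 tested passed in any comparison, a small class beside the 8.54%, 5.72% and 0% of all genes called in PCa against WT, PCa against PIN and PIN against WT. *Col1a1*, a chain of type I collagen, had 145, 12.6 and 63.1 CPM in WT 1 to 3, 90.3, 52.2 and 127 in PIN, and 45.1 and 29.4 in PCa. Both tumors were below all PIN libraries, but WT 2 was lower than either tumor. The log2 fold change of *Col1a1* was -0.99 ± 0.86 (SE) against WT, adjusted p = 0.501 by edgeR's quasi-likelihood test, and -1.27 ± 0.87 against PIN, adjusted p = 0.428.

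*Col1a2*, the partner chain of type I collagen, had 188, 31.2 and 90.9 CPM in WT, 149, 101 and 175 in PIN, and 68.9 and 22.4 in PCa. The ratio of *Col1a1* to *Col1a2* per exon base, which does not depend on scaling between libraries, was 0.961 to 1.34 in PIN and 1.21 in PCa 1, but 2.43 in PCa 2 and 0.749 in WT 2. *Col3a1*, which encodes type III collagen, had 237, 47.8 and 100.3 CPM in WT, 185, 94.4 and 228 in PIN, and 134 and 20.4 in PCa. The tumors thus differed in the type III to type I balance, with *Col3a1* to *Col1a1* at 2.32 per base in PCa 1 and 0.544 in PCa 2. WT 2, at 2.96, showed that normal tissue also varied in this ratio.

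The minor fibrillar chains *Col5a1* and *Col5a2*, which help to start fibrils, had log2 fold changes of -1.25 and -0.57 against WT, and neither passed. *Col11a2* was the only member above every WT and PIN library in both tumors, a pattern seen in 13.4% of all genes. It had 4.18 and 1.75 CPM in PCa against 0.586 to 1.33 in WT and PIN, with adjusted p = 0.184 against WT and 0.149 against PIN (edgeR's quasi-likelihood test).

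The largest log2 fold change of any member was that of a type IV collagen gene. *Col4a6* (chrX:137599946-137908619) had 398, 339.9 and 404 CPM in WT, 298, 346 and 527 in PIN, and 5.99 and 0.206 in PCa. The PCa values rest on 186 counts in PCa 1 and 6 counts in PCa 2, against 7502 to 13990 counts in each WT and PIN library. The groups did not overlap, and WT and PIN libraries were close to each other. *Col4a6* was lower in PCa by a log2 fold change of -6.94 ± 1.29 against WT, adjusted p = 0.0227, and of -6.97 ± 1.29 against PIN, adjusted p = 0.0291, both by edgeR's quasi-likelihood test.

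*Col4a5*, whose chain joins that of *Col4a6* in basement membranes of smooth muscle and of some epithelia, had 47.4, 26.7 and 59.4 CPM in WT, 80.5, 57.3 and 68.4 in PIN, and 50.4 and 0.274 in PCa. PCa 1 thus kept a *Col4a5* level within the WT range while PCa 2 held 8 counts. For *Col4a5* the log2 fold change against WT was -0.81 ± 1.34, adjusted p = 0.736 by edgeR's quasi-likelihood test. Per exon base, *Col4a6* exceeded *Col4a5* 5.71- to 10.7-fold in WT and 3.11- to 6.47-fold in PIN. In PCa 1 the ratio was 0.0998, with a 95% counting interval of 0.0853 to 0.116, and in PCa 2 it was 0.63, with an interval of 0.18 to 2.07 on its few counts.

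The log2 ratio of *Col4a6* to *Col4a5* differed by -4.91 between PCa and WT. The two-sided exact permutation p was 0.1, the smallest that 2 against 3 libraries allow, and 0.75 after Benjamini-Hochberg adjustment over 45 ratio tests. In PCa 1 these neighbors on chromosome X thus stood at very different distances from WT.

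The other pairs moved more evenly. *Col4a1* and *Col4a2*, which encode the chains of nearly all basement membranes, had 163, 24.7 and 74.9 and 100.2, 15.7 and 55.3 CPM in WT, with 132, 76.1 and 164 and 88.1, 52.1 and 115 in PIN. In PCa 1 they had 52.7 and 31 CPM, and in PCa 2 177 and 111. Their ratio per base was 1.31 to 1.65 in all 8 libraries, although their levels spanned 24.7 to 177 CPM for *Col4a1*. Both had log2 fold changes near 0, of 0.39 ± 0.78 and 0.31 ± 0.78 against WT. PCa 2 had the highest *Col4a1* of all libraries while most other members were at their lowest there.

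*Col4a3* had 7.66, 0.861 and 10.4 CPM in WT, 7.34, 6.72 and 14.3 in PIN, and 5.02 and 0.206 in PCa. *Col4a4* had 12.4, 1.31 and 11.7 CPM in WT, 9.61, 9.3 and 17.1 in PIN, and 3.54 and 0.549 in PCa. Their ratio per base was 0.518 to 0.736 in WT and PIN, 1.18 in PCa 1 and 0.313 in PCa 2, the last on 6 and 16 counts. Neither passed the test.

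**Figure D3:**
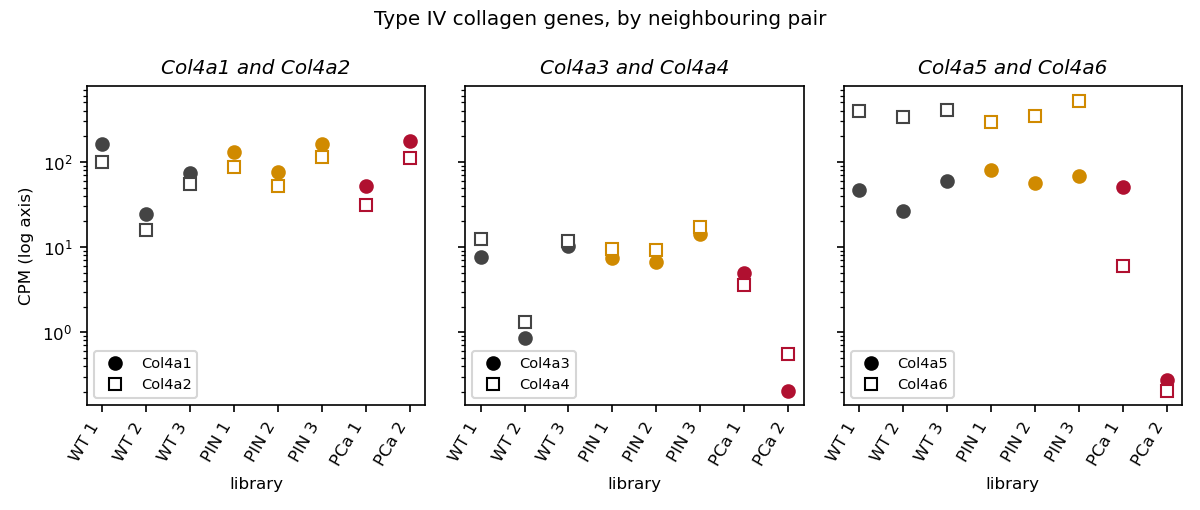
CPM on a log axis for the 6 type IV collagen genes in each library, 1 neighboring pair per panel, with filled circles and open squares for the 2 genes and gray, orange and red for WT, PIN and PCa. *Col4a1* and *Col4a2* keep the same distance in every library, whereas *Col4a6* is above *Col4a5* in the 6 WT and PIN libraries and below it in both tumors.

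The multiplexins *Col15a1* and *Col18a1*, basement membrane collagens that carry proteoglycan chains, did not pass. *Col18a1*, the source of endostatin, had 64.3, 32.4 and 41.9 CPM in WT, 50.2, 41.7 and 56.4 in PIN, and 29.1 and 16.4 in PCa. Both tumors were below all 6 other libraries, with a log2 fold change of -1.02 ± 0.37 against WT and an adjusted p of 0.126 by edgeR's quasi-likelihood test. *Col15a1* had log2 fold changes of -1.69 ± 0.86 and -2.21 ± 0.88 against WT and PIN.

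For the other collagens 0 of 17 tested passed in any comparison, where 8.54% of all genes passed in PCa against WT, 5.72% in PCa against PIN and 0% in PIN against WT. The 6 type VI genes had negative log2 fold changes in both PCa comparisons, with medians of -2.11 against WT and -2.27 against PIN. For *Col6a5* only PCa 2 was low, since PCa 1 lay inside the WT and PIN ranges, with 30.9, 19.3 and 6.44 CPM in WT, 37.1, 9.47 and 34.2 in PIN, 20 in PCa 1 and 0.0686 (2 counts) in PCa 2. *Col6a1* had 93.7, 24.2 and 77.6 CPM in WT, 84.4, 61.5 and 97.5 in PIN, and 25 and 8.64 in PCa. For *Col6a1* the log2 fold change was -1.95 ± 0.66 against WT, adjusted p = 0.107, and -2.27 ± 0.67 against PIN, adjusted p = 0.0935, by edgeR's quasi-likelihood test. *Col6a1* to *Col6a2* stayed at 1.97 to 2.68 per base in all 8 libraries.

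*Col6a3*, a larger chain of type VI collagen, had 181, 12.2 and 66.1 CPM in WT, 142, 28.5 and 120.3 in PIN, and 9.04 and 9.7 in PCa. Tumors were below all 6 other libraries, by little in the case of WT 2. *Col6a6* had 25 counts in PCa 1 and 0 in PCa 2, where 3 counts would correspond to 0.103 CPM, against 0.915 to 2.45 CPM elsewhere.

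The transmembrane collagens diverged. *Col17a1*, a hemidesmosome component of basal epithelial cells, had 21.9, 30.4 and 18.4 CPM in WT and 31.2, 25 and 37.5 in PIN, but 135 in PCa 1 and 0.377 in PCa 2. PCa 1 was the highest and PCa 2 the lowest of the 8 libraries. Summed basal epithelial markers (4 genes, none at 0) ran alongside, at 167.3 to 386.9 CPM in WT and PIN, 604.4 in PCa 1 and 27.43 in PCa 2. The keratins carried most of this difference, with *Krt15* at 368 CPM in PCa 1 and 1.13 in PCa 2, whereas *Trp63*, the basal transcription factor, had 25.5 to 42.9 CPM in WT and PIN, 46 in PCa 1 and 21.3 in PCa 2. The part of basal cells in the *Col17a1* values was not tested. *Col23a1* had 19.3, 2.36 and 14.9 CPM in WT, 16.8, 11.5 and 19.6 in PIN, and 1.87 and 0.994 in PCa. With log2 fold changes of -3.08 ± 0.87 and -3.48 ± 0.88, its adjusted p was 0.0679 against WT and 0.0623 against PIN (edgeR's quasi-likelihood test).

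*Col7a1*, which forms the anchoring fibrils below basement membranes, was the only member higher in every PIN library than in every WT library, a pattern of 6.48% of all genes, and 0 members were lower in every PIN library, against 6.38% of all genes. It had 59.3, 28.5 and 44.1 CPM in PIN against 28.4, 3.63 and 24.4 in WT, and PIN 2 and WT 1 were almost equal.

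Of the 8 proteoglycans and matricellular proteins, *Postn* passed, 12.5% of a short class, where 4.18% of all genes were called lower against WT and 3.17% against PIN. *Postn* (chr3:54165031-54194961), which encodes periostin, a protein of stromal fibroblasts that aids collagen crosslinking, had 46.5, 43.6 and 65.5 CPM in WT, 43.6, 101 and 54.9 in PIN, and 17.9 and 10.8 in PCa. Both tumors were below all other libraries. *Postn* had a log2 fold change of -1.85 ± 0.44 against WT, adjusted p = 0.0417, and -2.21 ± 0.45 against PIN, adjusted p = 0.0342, by edgeR's quasi-likelihood test. With upper-quartile scaling *Postn* did not pass against WT (adjusted p = 0.0571) and passed against PIN (adjusted p = 0.0445), by the same edgeR test.

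*Dcn* varied least of these genes, with 374, 393 and 287 CPM in WT, 360.2, 439 and 384 in PIN, and 417 and 206 in PCa. PCa 1 was within the range of the other groups and PCa 2 was the lowest library. *Lum*, encoding lumican, had 22, 15.7 and 20 CPM in WT, 18, 20.9 and 13.3 in PIN, and 49.7 and 0.549 in PCa. It was therefore highest in one tumor and lowest in the other, and *Dcn* to *Lum* per base was 15.4 to 31 in WT and PIN, 8.99 in PCa 1 and 402 in PCa 2.

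*Ogn*, encoding osteoglycin, had 30.5, 38.5 and 29.1 CPM in WT, 47.6, 37.9 and 45.7 in PIN, 43.5 in PCa 1 and 0.0686 in PCa 2, the last from 2 counts. *Fmod*, encoding fibromodulin, had 53.1, 24.1 and 38.2 CPM in WT, 16.6, 33.5 and 46.9 in PIN, and 9.33 and 0.514 in PCa, below all others in both tumors. *Fmod* had a log2 fold change against WT of -2.96 ± 1.07, adjusted p = 0.125 by edgeR's quasi-likelihood test. The gap between the tumors was far larger for *Ogn* than for *Fmod*.

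*Bgn*, encoding biglycan, had 191, 33.1 and 127 CPM in WT, 127, 109 and 186 in PIN, and 101 and 16.4 in PCa. *Vcan*, encoding the large proteoglycan versican, had 18.6, 13.3 and 15.8 CPM in WT, 22.4, 16.5 and 21.6 in PIN, and 15.9 and 1.27 in PCa. *Sparc* had 242, 69.2 and 109 CPM in WT, 183, 119 and 246 in PIN, and 127 and 117 in PCa. *Sparc* was the one gene of the 8 whose tumors nearly coincided, and both lay inside the WT range.

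The 2 tumors were unlike each other in most members. PCa 1 exceeded PCa 2 for 35 of 41 members (85.4%), where 50.3% of all genes did so. PCa 2 was below all 6 WT and PIN libraries for 30 members (73.2%, against 31.8% of all genes), and PCa 1 for 11 (26.8%, against 27.5%). Members under 1 CPM numbered 15 in PCa 2 (36.6%, against 13.8%) and 2 in PCa 1 (4.88%, against 6.43%). The median difference from the WT mean, on log2(CPM + 0.5), was -0.23 in PCa 1 and -1.95 in PCa 2. For proteoglycans and matricellular proteins it was 0.08 and -2.84.

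Fitting without PCa 1, so that PCa 2 alone stood for the tumors and was assumed to vary like the other groups, 12 members were called lower against WT (29.3%) and 0 higher, where 10.7% of all genes were called lower and 7.49% higher. *Ogn* then had a log2 fold change of -8.79, *Lum* of -5.11 and *Col17a1* of -5.94. Without PCa 2, 3 members were called, 2 of them higher (4.88%, against 5.09% of all genes) and 1 lower (2.44%, against 4.97%), with *Col17a1* at 2.54 and *Lum* at 1.38, both higher, and *Col4a6* at -5.97. *Col4a6* was the only member called lower in both of these fits.

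**Figure D4:**
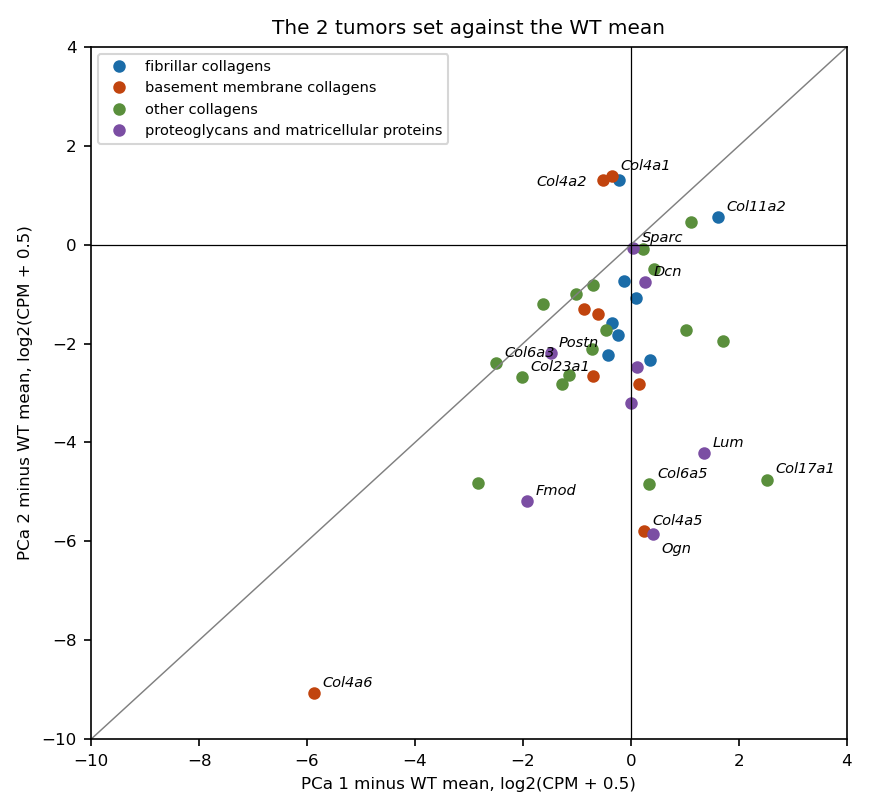
Difference from the WT mean on log2(CPM + 0.5) in PCa 1 (horizontal axis) and PCa 2 (vertical axis), 1 point per gene for the 41 genes, colored by class, with the line of equality in gray. Most points lie below the line; *Col4a6* is far down in both tumors, and *Ogn*, *Lum*, *Col17a1* and *Col4a5* are far down in PCa 2 only.

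Markers of stromal cells differed between the tumors as well. Summed fibroblast markers (8 genes, none at 0) were 147.8 to 284 CPM in WT, 217 to 228.5 in PIN, 190.2 in PCa 1 and 29.97 in PCa 2. None of the 8 was called, and *Fap* and *Pdgfrb*, at 1.71 and 7.68 CPM in PCa 2, did not share the low sum of that tumor. Endothelial markers (7 genes, none at 0) summed to 70.73 to 137.9 in WT and PIN, 128.2 in PCa 1 and 168.6 in PCa 2, where *Vwf* alone had 67.9 CPM. The one endothelial marker called went the other way, since *Emcn* had 19.3 to 54.2 CPM in WT and PIN and 9.2 and 11.1 in PCa, with a log2 fold change of -1.85 against WT (adjusted p = 0.0371, edgeR's quasi-likelihood test). Pericyte markers (4 genes, none at 0) summed to 10.92 to 67.28 CPM in WT and PIN, 45.82 in PCa 1 and 498.5 in PCa 2. *Abcc9* made up 411 CPM of the last value. *Rgs5* was also highest in PCa 2, at 81.7 CPM, but *Cspg4* and *Kcnj8*, at 4.53 and 1.71 there, lay inside the WT and PIN ranges. None of the 4 was called.

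Smooth muscle markers were low in both tumors, with 7 of 8 genes called lower in each PCa comparison (87.5%, against 4.18% of all genes against WT and 3.17% against PIN). *Acta2*, smooth muscle actin, for example, had 416 to 1255 CPM in WT and PIN and 11.4 and 8.06 in PCa. Skeletal muscle markers (5 genes, 2 tested) were also low, with sums of 199.1, 64.8 and 168.6 CPM in WT, 172.3, 53.28 and 262.1 in PIN, and 11.91 and 0.686 in PCa, the first nearly all from *Tnnt3* at 11.6. Both tested genes, *Acta1* and *Ckm*, were called lower in each PCa comparison, beside the same shares of all genes, and WT 2 and PIN 2 were the low libraries of their groups. PIN 2 was also the lowest PIN library for 31 of 41 members (75.6%, against 37.1% of all genes). Up to 2 of the 5 genes were at 0 in a library. Leukocyte markers (7 genes, 6 tested) summed to 44.32 to 121.7 CPM in WT and PIN, 358.5 in PCa 1 and 31.99 in PCa 2, and none was called. Schwann cell markers (4 genes, 3 tested) summed to 7.703 to 22.79 CPM in WT and PIN and to 4.183 and 4.457 in PCa. Of these markers 1 was called lower in each PCa comparison (33.3% of a short list, against 4.18% and 3.17% of all genes). The part of these cell types in the collagen values was not tested.

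**Figure D5:**
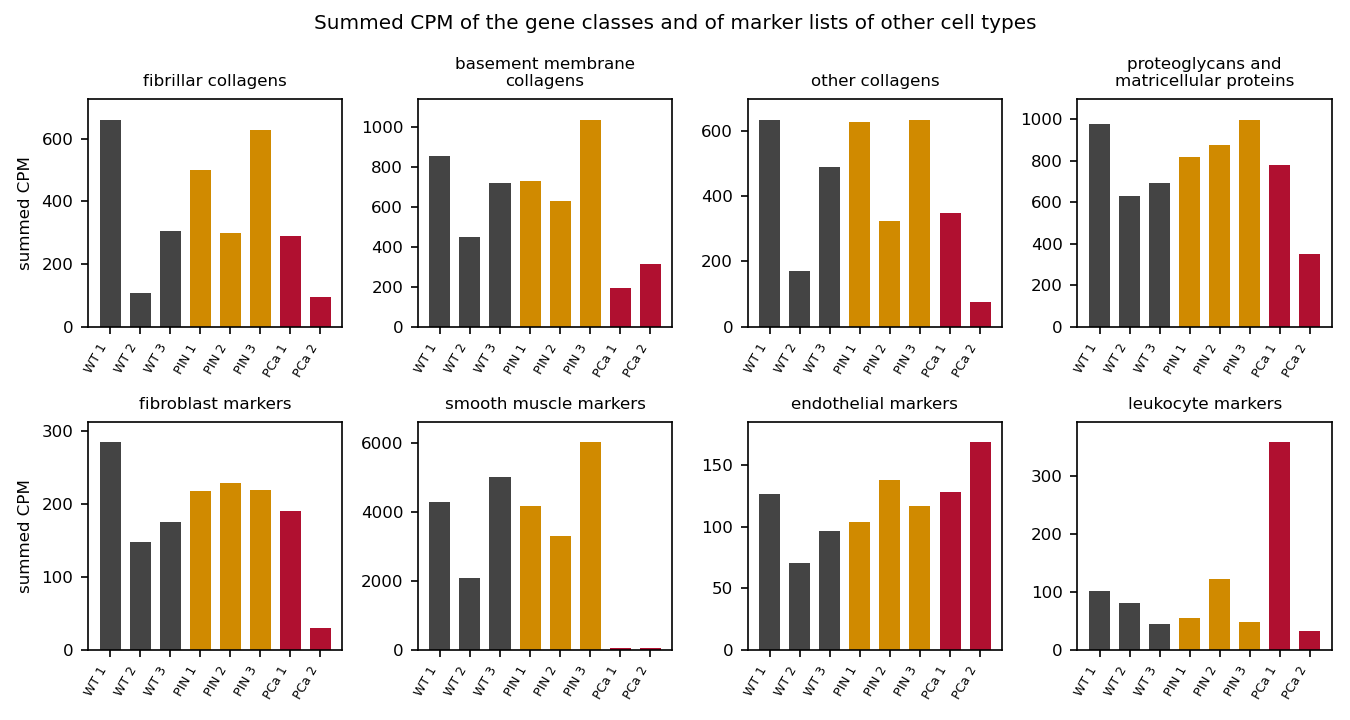
Summed CPM per library of the 4 member classes (top) and of marker lists for fibroblasts, smooth muscle, endothelium and leukocytes (bottom), each on its own axis from 0, with gray, orange and red bars for WT, PIN and PCa. Fibrillar collagens are lowest in PCa 2 and WT 2, at 95.28 and 109 CPM, and smooth muscle markers are near 0 in both tumors.

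The normal tissues differed among themselves. Without WT 1, the median log2 fold change in PCa against WT went from -0.86 to 0.00788 for the fibrillar collagens and from -1.73 to -0.88 for the other collagens. Without WT 2 the same medians were -1.31 and -1.82. WT 2 was the lowest WT library for 34 of 41 members (82.9%, against 43.4% of all genes), and WT 1 for 1 (2.44%, against 32.6%). Its fibrillar collagens summed to 109 CPM against 661 and 306.8 in WT 1 and WT 3. Without WT 2, 5 members were called lower in PCa against WT (12.2%, against 4.31% of all genes called lower) and 0 higher (2.99% of all genes), namely *Col4a6*, *Col6a1*, *Col12a1*, *Col15a1* and *Col23a1*. *Postn* was not called in that fit.

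The genes that process collagen chains were looked at next. Of 29 tested, 4 fell in PCa against WT (13.8%, against 4.18% of all genes called lower) and 0 rose, with a list median of -0.95 against 0.01 for all genes. *Leprel2* and *Lepre1*, both prolyl 3-hydroxylase family genes, had log2 fold changes of -3.17 ± 0.54 (adjusted p = 0.0167) and -2.57 ± 0.55 (adjusted p = 0.0322). *Serpinh1*, the collagen chaperone HSP47, had 64.7, 33.9 and 38.3 CPM in WT, 37.5, 29.2 and 44.3 in PIN, and 17.8 and 11.5 in PCa. It fell by 1.64 on the log2 scale against WT (adjusted p = 0.0388), and its difference from PIN did not pass (adjusted p = 0.0792). *Ppib*, a cyclophilin of the same complex as *Lepre1*, fell by 1.21 in both comparisons. The lysyl oxidases *Lox* and *Loxl1* to *Loxl4*, which crosslink collagen, did not pass. These adjusted p-values are from edgeR's quasi-likelihood test.

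Of 9 collagen receptor genes, *Itga1*, the alpha chain of a collagen-binding integrin, fell in both comparisons, and it was the only one called (11.1%, against 4.18% of all genes called lower against WT and 3.17% against PIN). It had 44.2, 20 and 50.1 CPM in WT, 49.9, 53.2 and 74 in PIN, and 4.05 and 9.46 in PCa, with adjusted p = 0.0309 against WT and 0.026 against PIN (edgeR's quasi-likelihood test). Its tumor values were below all others. Among 5 other proteoglycan genes tested, *Chad* (chondroadherin) fell against WT, with a log2 fold change of -2.48 and adjusted p = 0.0412 by the same edgeR test; a single gene is 20% of so short a list. None of 15 laminin, nidogen and other basement membrane genes and none of 16 elastic fiber and adhesive glycoprotein genes passed, where 8.54% of all genes did against WT and 5.72% against PIN.

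In the list of 12 TGF-beta ligands, receptors and response genes, 1 rose in each PCa comparison (8.33%, against 4.35% of all genes called higher against WT and 2.55% against PIN), and with both directions counted the share was near the 8.54% of all genes called against WT. *Tgfb1*, a ligand known to induce collagen genes in fibroblasts, had 11.8, 8.97 and 7.65 CPM in WT, 13.3, 9.37 and 9.64 in PIN, and 32.9 and 35.8 in PCa. On the log2 scale *Tgfb1* was higher by 1.86 ± 0.28 against WT (adjusted p = 0.0123) and 1.67 ± 0.28 against PIN (adjusted p = 0.0232), by edgeR's quasi-likelihood test. The tumors were close to each other and above all other libraries.

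The calls for *Col4a6* and *Postn* depended on single libraries, although the direction did not. Against WT, *Col4a6* lost its call without WT 3 (adjusted p = 0.064) or PIN 3 (adjusted p = 0.051, edgeR's quasi-likelihood test), and kept it in the other 6 fits with 1 library left out. It was at -5.97 on the log2 scale without PCa 2 and -10.81 without PCa 1. Against WT, *Postn* kept its call only without PIN 2 or PCa 1, with values from -2.26 to -1.52 over the 8 such fits. Against PIN, *Col4a6* kept its call without WT 2, PCa 1 or PCa 2, and *Postn* without WT 2 or PCa 1, with ranges of -10.84 to -6 and -2.61 to -1.78. With only the 2 groups compared in the model, neither gene passed, with adjusted p = 0.0994 for *Col4a6* and 0.092 for *Postn* against WT by edgeR's quasi-likelihood test. With DESeq2 both passed in both comparisons, among 9 members called lower against WT (22%, against 8.38% of all genes called lower and 9.34% higher by DESeq2) and 11 against PIN (26.8%, against 7.3% lower and 6.84% higher). DESeq2 called 0 members higher in either comparison.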

How the data were processed

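RNA from 8 mouse prostate tissues (3 WT, 3 PIN and 2 PCa) was sequenced as paired-end libraries after ribosomal RNA removal. The authors trimmed reads with cutadapt 1.9.1, aligned them to mm9 with HISAT2 2.1.0 and counted them per gene with HTSeq 0.6.1, and the deposited values are raw counts. The deposited table also gives each gene's summed exon length in bases, used here for TPM and for ratios between genes. Whether counting used strand is not given in the sources used here, so reads of genes that overlap cannot be told apart with certainty. Such pairs were *Col4a1* and *Col4a2*, *Ogn* and *Cenpp*, *Col18a1* and *Slc19a1*, and *Col10a1* and *Nt5dc1*. In the last pair *Nt5dc1* had a mean of 22 CPM against 0.06 for *Col10a1*.

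The counts went into edgeR 4.0.16 (R 4.3.3). Genes over 1 CPM in at least 2 samples were kept (14034), libraries were scaled with the trimmed mean of M-values, and all 8 were fitted in 1 quasi-likelihood model with 3 groups and 5 residual degrees of freedom. Calls required a log2 fold change beyond 1 in either direction and an adjusted p under 0.05 (Benjamini-Hochberg, over all genes tested). The filter and thresholds follow the study's methods. The study ran this kind of test on TPM and required a call under both the trimmed mean and upper-quartile scaling, whereas here it was run on counts with the first scaling, and the second is an alternative. Each standard error is the log2 fold change divided by the square root of its F value. The fit was also run on simulated counts, which varied less between libraries than these data. That run therefore does not show how reliable the calls are here. Nothing in the labels says more of the replicates than that they are separate samples, so p-values measure the spread between these samples. Counting intervals (95%, exact binomial) cover counting error only.

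Members and gene lists were chosen with earlier results of these data known. Described in full were members that passed, the 3 most abundant per collagen class by TPM, type IV pairs, all 8 matrix genes and, per partner list, up to 3 genes that passed in PCa against WT; others named were chosen after their values were seen. Upstream sequences were read from the mm9 genome (Ensembl gene starts); 51 of 51 members had the same coordinates there. Alternatives were upper-quartile scaling, DESeq2 1.42.0, no filter on low counts, only the 2 groups compared, the replicate number as a block, no fold limit, and leaving out each library. The level of the targeted gene is not reported here.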

Additional observations from a re-analysis of the deposited data

How the results depend on the processing

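Members called in PCa against WT numbered 2 as reported, 1 with upper-quartile scaling, 9 with DESeq2, and 0 with only the 2 groups compared or with the replicate number as a block; leaving out each library gave 0 to 12, while calls over all genes ran from 347 (2.48%, without WT 3) to 2477 (18.2%, without PCa 1). In PCa against PIN the 2 became 11 with DESeq2, 3 with only the 2 groups compared (*Col12a1*, *Col15a1* and *Col23a1*) and 0 with the replicate block, and leaving out each library gave 0 to 13, while calls over all genes ran from 78 (0.557%, without PIN 3) to 2251 (16.6%, without PCa 1). No alternative called a member in PIN against WT. Over all genes, calls in PCa against WT went from 1198 to 2487 with DESeq2, 130 with only the 2 groups and 413 with the block, and in PCa against PIN from 803 to 1984, 388 and 151. The block was an alternative only, since same-numbered libraries showed little likeness. The mean correlation of their deviations was 0.0827, against -0.0422 for differently numbered ones, and 3 of 8 libraries were closest to their own number. With 2 PCa libraries, deviations from the PCa mean mirror each other, so this check is weak for pairs with PCa. No scaling moved the median of all genes by over 0.1.

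Of 840 checks on 20 members, 750 kept direction and side of the threshold, 28 lost and 22 gained a call with the same sign, and 40 changed sign, 35 of these on leaving out a library and 4 with a call gained. With the replicate block the log2 fold change became -0.54 for *Lum* and 0.0522 for *Sparc* in PCa against WT, and 0.27 for *Col4a1*, 0.15 for *Col4a2* and -0.50 for *Lum* in PCa against PIN. With 1 library left out, log2 fold changes in PCa against WT ranged over -2.64 to 0.0744 (*Col3a1*), -0.72 to 1.21 (*Col4a1*), -0.87 to 1.00 (*Col4a2*), -7.31 to 0.19 (*Col4a5*), -5.94 to 2.54 (*Col17a1*), -0.76 to 0.26 (*Dcn*), -5.11 to 1.38 (*Lum*), -8.79 to 0.43 (*Ogn*), -0.53 to 0.45 (*Sparc*) and -3.63 to 0.0147 (*Vcan*). In PCa against PIN they ranged over -1.21 to 0.53 (*Col4a1*), -1.44 to 0.40 (*Col4a2*), -6.34 to 2.13 (*Col17a1*), -0.92 to 0.10 (*Dcn*), -4.96 to 1.53 (*Lum*) and -9.21 to 0.0151 (*Ogn*). In PIN against WT they ranged over -0.21 to 1.25 (*Col1a1*), -0.0077 to 0.87 (*Col4a4*), -0.24 to 0.19 (*Col4a6*), -0.0780 to 0.67 (*Col6a1*), -0.35 to 1.31 (*Col6a3*), -0.18 to 0.81 (*Bgn*), -0.62 to 0.0548 (*Fmod*), -0.30 to 0.0185 (*Lum*) and -0.0758 to 0.58 (*Postn*). With PCa at 2 libraries that differ this much, most values for the tumors describe those 2 tissues. What causes the shifts was not tested.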

Other observations

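A collagen gene that the naming pattern misses, *Emid2* (an older symbol of *Col26a1*), had 0 to 0.198 CPM in WT and PIN and 0.129 and 0.651 CPM in PCa, under 1 CPM throughout. *Hapln1* was picked after its values were seen. This gene of a link protein, which binds hyaluronan and proteoglycans, had 0.0906 to 0.49 CPM in WT and PIN, 0.0322 in PCa 1 (1 count) and 4.46 in PCa 2 (130 counts).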
